A study of Mus musculus with 30 samples.

Results

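Brown fat burns fuel to make heat. In the mitochondria of a brown adipocyte the uncoupling protein UCP1 lets protons return across the inner membrane without making ATP, and noradrenaline switches the process on through beta-adrenergic receptors and cAMP. The deiodinase DIO2 supplies the cell with active thyroid hormone, and other proteins set membrane potential, lipid storage, amino acid transport and oxygen supply. 9 genes of this programme (Ucp1, Ucp2, Ucp3, Dio2, Kcnk3, Slc36a2, Cidea, Mb and Chchd10) were followed through the differentiation of brown preadipocytes with and without the glucocorticoid receptor. They were chosen by name from brown fat biology, and each was represented by the RefSeq transcript with the most reads over all libraries, which gave 9 of the 23109 genes or unmatched transcripts in the tables.

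The cells were brown preadipocytes from the interscapular fat of newborn C57BL/6J pups with loxP sites in both copies of Nr3c1, the receptor gene, immortalised with SV40 T antigen. In the deleted cells (Cre) a retrovirus brought in Cre recombinase, and the other cells (Vec) received a control retrovirus, so all libraries trace back to 1 immortalised line and carry the floxed allele. RNA was sequenced before induction (D0), after 4 hours in an adipogenic mix (4h), on day 2 (D2) and on day 7 (D7). The mix contained 2 µg/ml of dexamethasone, a ligand of the receptor, with IBMX at 0.5 mM, indomethacin at 0.125 mM, T3 at 1 nM and insulin at 0.02 µM. Each of the 8 groups, 2 genotypes by 4 times, holds 1 library. T3 is a thyroid hormone, IBMX raises cAMP, and the labels name no adrenergic agonist. Media between 4h and D7 are not stated in those labels, and 22 ChIP samples were not analysed here.

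Depth ran from 7.71 M reads (Cre 4h) to 28.9 M (Vec D2). Values are the authors' RPKM, reads scaled to transcript length and library total, with the reads behind them where they were few. No group has a replicate, so no value carries a spread between cultures. Intervals are 95% exact intervals on the reads and cover counting error only, and 3 reads were taken as the floor for a gene at 0. Nr3c1 itself stood in Cre at 19.8 to 37.8% of its Vec level over the 4 times. Reads of exons outside the loxP sites can still count there. The source of the reads left in Cre, and whether all its cells had lost the receptor, were not tested. Of 12 brown fat markers, 10 reached an RPKM of 1 in both D7 libraries, against 3 in Cre D0 and 4 in Vec D0, and the 2 that did not at D7 were Ucp1 and Dio2. The 12 include the members Ucp1, Cidea, Dio2, Kcnk3 and Slc36a2, so this count partly restates the values below. Ebf2, Zic1 and Lhx8 had reached an RPKM of 1 in both D0 libraries already. Endothelial markers summed to an RPKM of at most 3.25 and macrophage markers to at most 3.10 in any library.

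The RefSeq promoter windows of the uncoupling protein genes and Dio2 are shown because they cover the heat-producing protein, its relatives and the 1 member that peaked at 4h. The windows run from 250 bases before to 50 after the annotated start, on the gene's strand, in assembly GRCm38.p6. Windows of 6 of the 9 genes were searched, and Kcnk3, Slc36a2 and Cidea were not among them. The 6 are those searched and not a count of the members that have a window in that assembly. Capitals mark the cAMP response element half-site TGACG and the nuclear receptor half-site AGGTCA on either strand, the 2 half-sites through which CREB and hormone receptors are known to bind. Dio2 lies on the minus strand at chr12:90738989-90739288, Ucp1 on the plus strand at chr8:83290098-83290397, Ucp2 on the plus strand at chr7:100493108-100493407 and Ucp3 on the plus strand at chr7:100472741-100473040.
Dio2: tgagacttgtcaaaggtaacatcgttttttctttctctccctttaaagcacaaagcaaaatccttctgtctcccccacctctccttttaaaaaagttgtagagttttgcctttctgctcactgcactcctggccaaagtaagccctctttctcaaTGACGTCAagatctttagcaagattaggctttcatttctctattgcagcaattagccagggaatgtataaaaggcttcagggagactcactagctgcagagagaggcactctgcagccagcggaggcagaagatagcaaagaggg
Ucp1: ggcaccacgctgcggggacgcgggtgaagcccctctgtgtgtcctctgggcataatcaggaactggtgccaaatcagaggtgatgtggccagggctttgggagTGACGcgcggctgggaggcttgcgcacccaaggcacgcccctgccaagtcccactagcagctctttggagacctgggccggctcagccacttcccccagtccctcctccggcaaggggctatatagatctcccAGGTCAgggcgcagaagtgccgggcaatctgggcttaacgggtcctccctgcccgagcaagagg
Ucp2: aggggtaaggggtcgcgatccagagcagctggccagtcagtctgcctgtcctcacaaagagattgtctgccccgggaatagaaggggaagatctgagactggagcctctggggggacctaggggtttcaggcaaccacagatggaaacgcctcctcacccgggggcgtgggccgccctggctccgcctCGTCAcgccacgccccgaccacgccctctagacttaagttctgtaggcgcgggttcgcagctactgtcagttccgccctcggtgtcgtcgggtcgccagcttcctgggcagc
Ucp3: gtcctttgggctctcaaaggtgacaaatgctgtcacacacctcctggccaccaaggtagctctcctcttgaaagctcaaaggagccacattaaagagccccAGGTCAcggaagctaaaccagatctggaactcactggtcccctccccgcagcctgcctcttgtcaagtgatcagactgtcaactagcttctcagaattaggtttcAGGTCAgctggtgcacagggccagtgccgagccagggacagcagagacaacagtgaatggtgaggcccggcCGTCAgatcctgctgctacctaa
The Dio2 window holds the full palindrome TGACGTCA, which starts at -95 from the annotated start, and this motif occurs in 1.79% of the 32851 RefSeq windows of that length. The same letters hold a TGACG on each strand, so the palindrome counts there as overlapping half-sites. Ucp1, Ucp2 and Ucp3 have 1 half-site TGACG each, a motif found in 20.8% of windows. AGGTCA occurs once in the Ucp1 window and at 2 places in that of Ucp3, and in 16.3% of all windows. The search also covered motifs not capitalised above. The full glucocorticoid receptor element (0.475% of all windows) matched in none of the 6 genes. Nor did the DR1 and ERR elements of nuclear receptors or the C/EBP palindrome. Mb windows held the glucocorticoid receptor half-site (19.0% of all windows) and both capitalised half-sites. The Chchd10 window held the nuclear receptor half-site. The Dio2 palindrome is thus 1 match from a search of several motifs in 6 genes. These matches describe the letters only, and no binding was measured here.

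Of the uncoupling proteins, Ucp1, the one that makes heat in brown fat, stayed close to the detection floor. It had 0 reads in Cre D0 and 0 in Vec D0, 0 in Cre 4h and 1 in Vec 4h, 6 in Cre D2 and 5 in Vec D2, and 3 in Cre D7 and 22 in Vec D7. The single library that stood out was Vec D7, at an RPKM of 0.882 (0.553 to 1.33), against 0.0738 (0.0152 to 0.216) in Cre D7. Cre D7 was thus 0.0837 times Vec D7 (0.0160 to 0.279), a ratio that rests on 3 reads. Within Vec, D7 was 8.37-fold above D2 (3.09 to 28.3), whereas within Cre it was 0.537 times D2 (0.0868 to 2.51), an interval that spans 1.

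Ucp3, the family member known from skeletal muscle and brown fat, appeared late in both genotypes. Its reads were 1 in Cre D0 and 0 in Vec D0, 0 in both 4h libraries, 2 in Cre D2 and 1 in Vec D2, and 13 in Cre D7 and 26 in Vec D7. At D7 this gave an RPKM of 0.215 (0.114 to 0.367) in Cre and 0.700 (0.457 to 1.03) in Vec, a ratio of 0.307 (0.145 to 0.620). Neither Ucp1 nor Ucp3 reached an RPKM of 1 in any library, so neither entered the tests described below.

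Ucp2, a carrier found in many tissues whose part in heat production is not established, was the only member with an RPKM of at least 1 in all 8 libraries and the highest of the 9 at D0 and 4h in both genotypes and at D2 in Vec. Its RPKM was 2.60 in Cre and 3.01 in Vec at D0, 7.50 in Cre and 14.7 in Vec at 4h, 6.20 in Cre and 10.4 in Vec at D2, and 9.30 in Cre and 23.2 in Vec at D7. In both genotypes the 4h value lay above both D0 and D2, and D7 was the highest. The ratio of Cre to Vec was 0.865 (0.729 to 1.03) at D0, 0.510 (0.439 to 0.590) at 4h, 0.597 (0.543 to 0.656) at D2 and 0.401 (0.369 to 0.436) at D7, so only the D0 interval reached 1. Scaling by TMM factors shifted Vec 4h by 0.12 in log2 units and the other libraries by less, and with it the 4h difference of Ucp2 passed 2-fold. Over both genotypes Ucp2 was 1.99 higher at 4h than at D0 on the log2 scale (SE 0.28, edgeR quasi-likelihood adjusted p = 0.0105), and it was the 1 member called at 4h, where 12.2% of all tested genes rose. The call was lost without Vec D0 (adjusted p = 0.0757) and without Vec 4h (0.0696).

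Dio2, which converts thyroxine to T3, peaked at 4h in both genotypes. It had 4 reads in Cre D0 and 5 in Vec D0, 17 in Cre 4h and 29 in Vec 4h, 9 in Cre D2 and 8 in Vec D2, and 23 in Cre D7 and 6 in Vec D7. In RPKM this was 0.0285 in Cre and 0.0366 in Vec at D0, 0.379 in Cre and 0.407 in Vec at 4h, 0.0584 in Cre and 0.0477 in Vec at D2, and 0.160 in Cre and 0.0680 in Vec at D7. Within Cre the 4h level was 13.3-fold that of D0 (4.34 to 54.3), and within Vec 11.1-fold (4.25 to 36.8). By D2 it stood at 0.154 times the 4h level in Cre (0.0604 to 0.365) and 0.117 times in Vec (0.0463 to 0.263). From D2 to D7 it rose again in Cre, 2.74-fold (1.22 to 6.74). In Vec that change was 1.43-fold (0.408 to 4.69), an interval that includes 1. The 4h peak was present in both genotypes, with intervals that overlap, and the 4h ratio of Cre to Vec was 0.933 (0.481 to 1.75). With the filter on low values left out, Dio2 was 3.68 higher at 4h than at D0 on the log2 scale (edgeR adjusted p = 0.00729). At D7 it was the only member with a ratio above 1, at 2.35 (0.932 to 7.07), an interval that includes 1. Its RPKM stayed below 1 throughout.

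Kcnk3 and Slc36a2 code for proteins of the plasma membrane. KCNK3 is a potassium leak channel of the TASK type, known in brown adipocytes for setting the membrane potential and damping the adrenergic response. Its RPKM was 0.142 in Cre and 0.123 in Vec at D0, 0.0341 in Cre and 0.0856 in Vec at 4h, 1.26 in Cre and 1.74 in Vec at D2, and 9.62 in Cre and 34.0 in Vec at D7. The first 2 times rest on 1 to 13 reads per library and the last 2 on 127 to 1964. The ratio of Cre to Vec had an interval that includes 1 at D0 (1.15, 0.476 to 2.84) and 4h (0.398, 0.00808 to 4.02), and it was 0.724 (0.574 to 0.910) at D2 and 0.283 (0.262 to 0.307) at D7. The D7 level was 7.66-fold the D2 level in Cre (6.35 to 9.29) and 19.6-fold in Vec (16.8 to 22.8).

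Slc36a2, a proton-coupled amino acid transporter used as a surface marker of brown adipocytes, was low until 4h and had at D7 the highest RPKM of the 9 in both genotypes. It stood at 0.0853 in Cre and 0.0700 in Vec at D0, on 5 reads in Cre and 4 in Vec, had 0 reads in both 4h libraries, and reached 12.8 in Cre and 8.61 in Vec at D2 and 23.5 in Cre and 93.6 in Vec at D7. Cre was the higher genotype at D2 and the lower at D7. The ratio of Cre to Vec was 1.48 (1.34 to 1.65) at D2 and 0.251 (0.236 to 0.267) at D7. From D2 to D7 the level grew 1.84-fold in Cre (1.69 to 2.01) and 10.9-fold in Vec (9.97 to 11.9).

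Cidea, a lipid droplet protein of brown fat, was a D7 gene. It had 0 reads in both D0 and both D2 libraries, 0 in Cre 4h and 5 in Vec 4h, and then 37 in Cre D7 and 130 in Vec D7. The D7 values were an RPKM of 1.29 (0.906 to 1.77) in Cre and 7.36 (6.15 to 8.74) in Vec, a ratio of 0.175 (0.118 to 0.254). Against the floor of 3 reads per library, D7 was at least 13.2-fold higher than D2 in Cre and at least 82.4-fold higher in Vec. Cidec, the family member found in fat of any kind, differed in its timing and was already at 40.6 in Cre D2 and 78.7 in Vec D2.

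Mb, the oxygen-binding myoglobin of muscle and brown fat, had the lowest ratio of Cre to Vec at D7 after Ucp1, on far more reads. It had 2 reads in each D0 library, 0 in Cre 4h and 1 in Vec 4h, 6 in Cre D2 and 5 in Vec D2, and 66 in Cre D7 and 449 in Vec D7. Its RPKM at D7 was 2.53 (1.96 to 3.22) in Cre and 28.0 (25.5 to 30.7) in Vec, and the ratio was 0.0903 (0.0686 to 0.117). On the log2(RPKM + 1) scale the difference at D7 was -3.04, Cre minus Vec, the lowest of the 12480 genes compared. Its 3 transcripts in the tables had 36 to 66 reads each in Cre D7 and 400 to 449 in Vec D7 and may share them, and with the reads of all transcripts summed its D7 call described below was kept.

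Because myoglobin is also a muscle protein, the muscle markers are given beside it. Their summed RPKM at D7 was 68.6 in Cre and 39.0 in Vec, and over the D0, 4h and D2 libraries it ran from 20.6 to 28.3 in Cre and from 13.7 to 32.1 in Vec. Of the 14 of 24 that could be compared at D7, 1 was at least 2-fold higher in Cre on the log2(RPKM + 1) scale (Myl1, 3.66 in Cre and 1.33 in Vec). By that rule 0 were lower, and the median difference was 0.63. The added 1 shrinks such gaps at low RPKM. As plain ratios of Cre to Vec, Myh3 stood at 3.11 (2.36 to 4.16) and Myog at 3.07 (1.89 to 5.24). Mylpf stood at 2.40 (1.47 to 4.08) and Tnni1 at 2.38 (1.61 to 3.61). Only Des, of the 14, had a ratio below 1, at 0.647 (0.483 to 0.867). Ckm, the muscle creatine kinase, had 3 reads in Cre D7 and 0 in Vec D7, and Myh6 was at 0 in both. Acta1 had 663 reads in Cre D7 and 222 in Vec D7. The median muscle marker was thus higher in Cre, where Mb and Ucp3 were lower, and the part of muscle-type cells in the values of Mb and Ucp3 was not tested.

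Chchd10, a small protein of the mitochondrial intermembrane space, was detected from the start. Its RPKM was 0.657 in Cre and 1.26 in Vec at D0, 1.78 in Cre and 0.516 in Vec at 4h, 5.73 in Cre and 6.72 in Vec at D2, and 7.60 in Cre and 45.8 in Vec at D7. The 4h values rest on 13 reads in Cre and 6 in Vec. The ratio of Cre to Vec was 0.522 (0.259 to 1.01) at D0, 3.45 (1.22 to 11.1) at 4h, 0.852 (0.680 to 1.06) at D2 and 0.166 (0.140 to 0.196) at D7. Between D2 and D7 it grew 1.33-fold in Cre (1.06 to 1.66) and 6.81-fold in Vec (5.78 to 8.07).

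**Figure D1:**
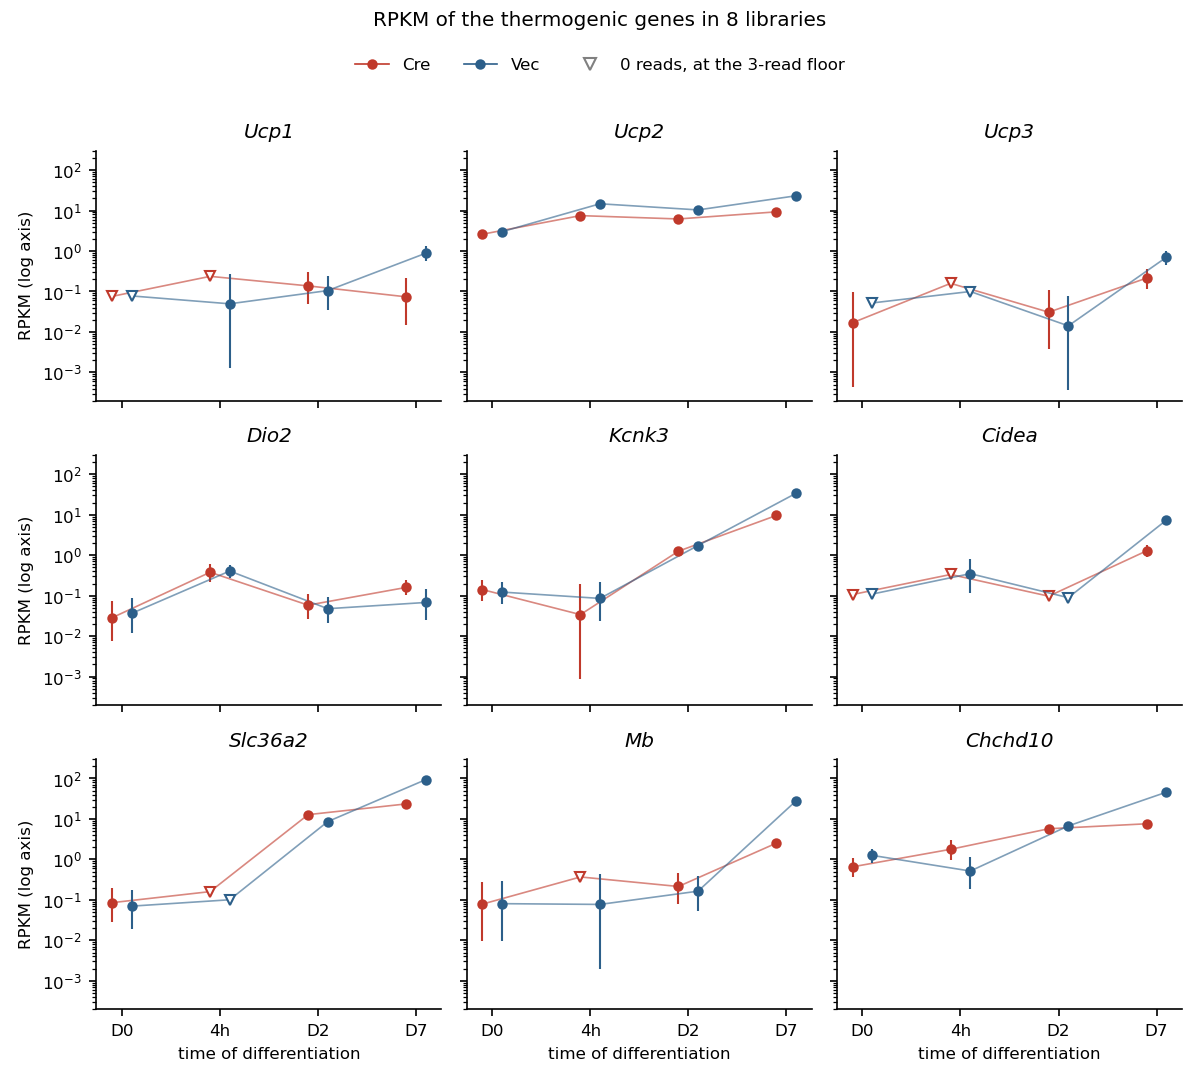
RPKM (log axis) of the 9 genes against time of differentiation in Cre (red) and Vec (blue), 1 library per point, with 95% exact Poisson intervals of the reads as bars and open triangles at the 3-read floor for libraries at 0 reads. Slc36a2 climbs by D2 and Cidea and Mb only at D7, Dio2 peaks at 4h at 0.379 in Cre and 0.407 in Vec, and Vec lies above Cre at D7 in every panel but that of Dio2.

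The levels differed as much among the genes as over time. In Cre D7 the order of RPKM was Slc36a2, Kcnk3, Ucp2, Chchd10, Mb, Cidea, Ucp3, Dio2 and Ucp1, and in Vec D7 it was Slc36a2, Chchd10, Kcnk3, Mb, Ucp2, Cidea, Ucp1, Ucp3 and Dio2. In Cre the intervals of Kcnk3 (9.01 to 10.3) and Ucp2 (8.72 to 9.91) overlapped, as did those of Ucp2 and Chchd10 (6.52 to 8.80), of Ucp3 and Dio2 (0.101 to 0.240), and of Dio2 and Ucp1. In Vec those of Ucp1 and Ucp3 overlapped. All other neighbours at D7 were apart by more than counting error. Summed over the 9 genes, RPKM was 3.61 in Cre and 4.57 in Vec at D0 and 54.3 in Cre and 234 in Vec at D7.

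The times were then compared over both genotypes with edgeR's quasi-likelihood test, in a model that adds a time and a genotype effect. It covered 12581 genes that reached an RPKM of 1 in 2 libraries or more. 6 of the 9 members passed that filter. Cidea and Mb did so only through the D7 libraries and Kcnk3 and Slc36a2 only through those of D2 and D7, so these 4 had to be higher later on to be tested, and their part in the counts below is a description. Ucp2 and Chchd10 reached an RPKM of 1 before D2 as well. The p-values of the model, adjusted by Benjamini-Hochberg, weigh a time or genotype effect against departure from additivity over these 8 libraries. They do not weigh it against the spread between cultures. Against D0, 4 of the 6 rose by D2, where 17.7% of all tested genes rose. Slc36a2 was higher by 7.16 on the log2 scale (SE 1.02, adjusted p = 0.00824), Kcnk3 by 3.48 (SE 0.53, 0.00673), Chchd10 by 2.77 (SE 0.84, 0.0460) and Ucp2 by 1.47 (SE 0.27, 0.0115). Mb and Cidea did not pass. Without Vec D0 none of the 4 passed (0.0697 to 0.237), and without Cre D2 Kcnk3 and Slc36a2 did. Chchd10 also missed the threshold without Cre D0, without Vec D2 and with limma on log2(RPKM + 1) (0.0776), and Kcnk3 with that limma fit (0.0798).

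By D7 the 6 tested members passed as higher than D0, where 5.68% of all tested genes rose, and nothing is read from this count, since the filter favoured a rise to D7 for 4 of them. Ucp2 and Chchd10 were the 2 it did not favour. The fitted log2 changes were 9.76 for Cidea, 9.47 for Slc36a2, 7.27 for Kcnk3, 7.25 for Mb, 4.68 for Chchd10 and 2.49 for Ucp2, with adjusted p from 0.00528 to 0.0363 by edgeR. That of Cidea depends on the prior count, as both D0 libraries had 0 reads. The median over all tested genes was 0.01. Without Vec D0 no gene of the 12581 passed, members included, and without Cre D0 only Kcnk3 and Ucp2 of the 6 did. Cidea and Chchd10 missed the threshold without Vec D7 (0.133 for Cidea and 0.107 for Chchd10), Chchd10 without Cre D2 (0.0503) and with limma on log2(RPKM + 0.1) (0.0607), Cidea with DESeq2 (0.202) and Mb with limma on log2(RPKM + 1) (0.0509).

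Between D2 and D7, Kcnk3 rose by 3.79 and Ucp2 by 1.02, where 15.4% of all tested genes rose. Cidea, higher by 9.83, and Mb, by 6.01, passed too, but were tested only because they reached the filter at D7, and the value of Cidea rests on libraries at 0. The edgeR adjusted p of these 4 ran from 0.00565 to 0.0413. Slc36a2 (2.31, adjusted p = 0.0686) and Chchd10 (1.91, 0.112) did not pass. Without Cre D7 both Slc36a2 and Chchd10 passed (0.00843 for Slc36a2 and 0.0301 for Chchd10). Slc36a2 also passed without Cre D2 (0.0210) and with limma on log2(RPKM + 1) or no filter (0.0420 each), and Chchd10 with DESeq2 (0.0329). Without Vec D2 only Kcnk3 passed, and without Vec D7 Kcnk3 and Mb. Ucp2 missed the threshold without any 1 of Cre 4h, Vec 4h, Cre D2, Vec D2 or Vec D7 (0.0581 to 0.242) and with limma (0.0634), and Cidea with DESeq2 (0.142).

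**Figure D2:**
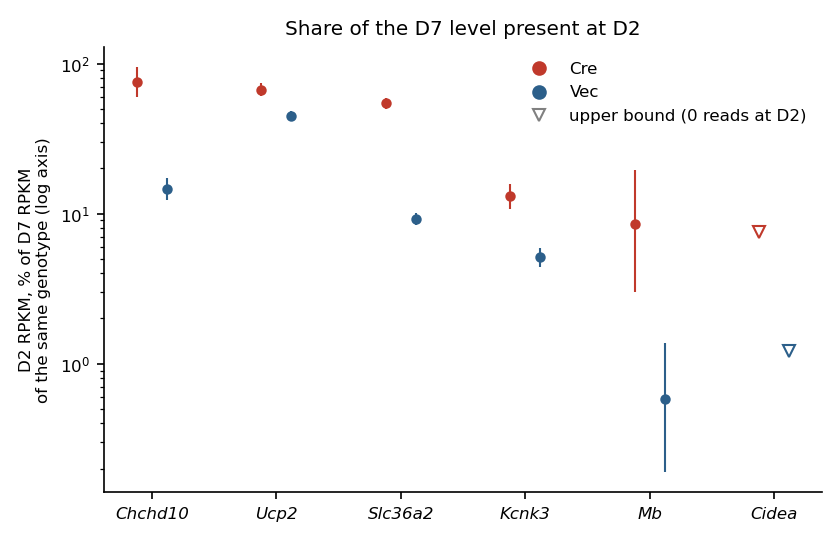
For the 6 members that passed the filter on low values, RPKM at D2 as a percentage of RPKM at D7 in the same genotype (log axis), Cre (red) left of Vec (blue), with 95% exact binomial intervals of the reads and open triangles for upper bounds. Chchd10 stood at 75.4% in Cre and 14.7% in Vec and Slc36a2 at 54.3% in Cre and 9.19% in Vec, and each Cre point other than that of Cidea lies above its Vec point. Both Cidea points are upper bounds, so their order is not read. Ucp1, Ucp3 and Dio2 are not drawn.

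How far each gene had come by D2 is shown in the plot of D2 as a share of D7. Ucp2 was at 66.7% of its D7 level in Cre (60.3 to 73.7) and 44.8% in Vec (41.5 to 48.4), and Kcnk3 at 13.1% in Cre (10.8 to 15.7) and 5.11% in Vec (4.38 to 5.94). Mb was at 8.47% in Cre (3.00 to 19.4) and 0.586% in Vec (0.189 to 1.38), and Cidea at no more than 7.55% in Cre and 1.21% in Vec. For Chchd10, Ucp2, Slc36a2, Kcnk3 and Mb the share was higher in Cre, with intervals that did not meet those of Vec. The untested members did not all do so. Dio2 was at 36.5% in Cre (14.8 to 81.8) and 70.1% in Vec (21.3 to 245), Ucp3 at 14.3% in Cre (1.57 to 63.3) and 2.02% in Vec (0.0493 to 12.3), and Ucp1 at 186% in Cre (39.8 to 1151) and 12.0% in Vec (3.54 to 32.3). This share has the D7 level as its denominator, so it moves with the D7 gap described next.

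The comparison of Cre with Vec at each time asks how this programme differs in cells without the receptor. With 1 library a side it has no test, and a gene was counted at a gap of 1 or more in log2(RPKM + 1). Only genes that reached an RPKM of 1 in Cre or Vec were compared. At D0, 0 of the 2 members compared differed so, against 0.433% of genes. At 4h it was 0 of 2, against 4.24%, and at D2 0 of 4, against 4.09%. At D7, 6 of the 6 compared were lower in Cre, against 3.12% of all 12480 genes. The differences, Cre minus Vec, were -3.04 for Mb, -2.44 for Chchd10, -1.95 for Slc36a2, -1.87 for Cidea, -1.72 for Kcnk3 and -1.23 for Ucp2. With a pseudocount of 5 in place of 1, Cidea and Ucp2 no longer reached 2-fold and 4 of 6 remained. In bulk RNA, fewer adipocytes in the dish and less RNA of a gene per adipocyte cannot be told apart.

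General adipocyte genes moved with this result. All 12 of a list that any fat depot expresses were at least 2-fold lower in Cre at D7, with ratios from 0.312 (Dgat2) to 0.462 (Cfd) and summed RPKM of 2951 in Cre and 7623 in Vec. At D2, 8 of the 12 were lower in Cre by any amount, with a median difference of -0.25, but 0 were at least 2-fold lower and 1 was at least 2-fold higher. Of the 9 thermogenic genes, 7 had a D7 ratio below that of Dgat2, and for Ucp1, Mb, Chchd10, Cidea and Slc36a2 the whole counting interval lay below those of all 12. Kcnk3 and Ucp3 had lower ratios than Dgat2 with overlapping intervals, Ucp2 fell among the adipocyte genes, and Dio2 lay above them. Ratios below all 12 were not confined to the thermogenic genes. Retn, from the white or beige markers, stood at 0.156 (0.139 to 0.175) and Thrsp, from the thyroid axis, at 0.185 (0.168 to 0.204). They were the 1 of 11 compared white or beige markers and the 1 of 8 thyroid genes at least 2-fold lower in Cre. Whether a lower share of adipocytes accounts for the D7 values was not tested.

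**Figure D3:**
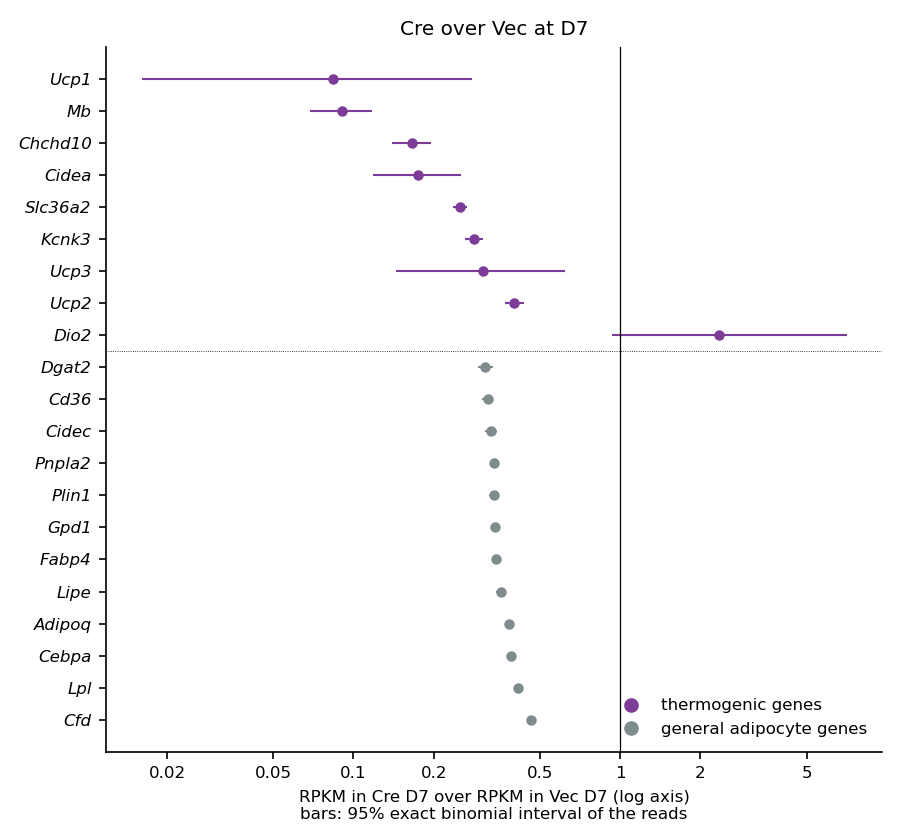
RPKM in Cre D7 over RPKM in Vec D7 (log axis) for the 9 thermogenic genes (purple, top) and 12 general adipocyte genes (grey, below), with 95% exact binomial intervals of the reads. The adipocyte genes sit between 0.312 and 0.462, Mb at 0.0903 and Chchd10 at 0.166 lie well to their left, and the interval of Dio2 crosses 1.

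Over all times the additive edgeR model called no member and no gene for Cre against Vec, 0% of 12581. Nr3c1, the deleted gene, was not called either, though it stood in Cre at 19.8 to 37.8% of Vec. Nothing about the members is therefore read from this absence of calls. At an unadjusted p under 0.05 there were 4 members and 1501 genes, and DESeq2 called 0 members and 19 genes. A term for an extra genotype difference at D7, added after the data were seen and leaving 2 residual degrees of freedom, also called 0 members and 0% of genes by edgeR. Its estimates were -3.60 for Mb (SE 0.72), -2.62 for Slc36a2 (SE 0.22), -2.54 for Chchd10 (SE 0.69) and -1.53 for Kcnk3 (SE 0.31), with adjusted p from 0.415 to 0.474. Those of the other 2 were -0.69 for Ucp2 (SE 0.35, adjusted p = 0.693) and 0.82 for Cidea (SE 0.70, adjusted p = 0.811), that of Cidea being of opposite sign. Before D7 the only reads of Cidea were 5 in Vec 4h, and its genotype term rests on them. No direction is therefore read from the sign for Cidea. There were 4 members and 1007 genes at an unadjusted p under 0.05.

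Genes that act around the 9 were taken from lists chosen by function. Their counts stand against 5.68% of all tested genes that rose between D0 and D7 and 3.12% of all compared genes that were 2-fold lower in Cre at D7. Cox8b, Clstn3, Thrb, Alpl, Lep, Slc7a10 and Myl1, among those counted below as higher at D7, reached an RPKM of 1 in D7 libraries only and were tested for that reason. Ppargc1a, Ppargc1b, Irf4, Adrb3, Thrsp, Retn, Plin1, Cidec, Cd36 and Gpd1 reached it only in D2 and D7 libraries. The filter thus favoured a later rise for all of these, and their part in the counts and medians below is a description. Of 16 tested transcription factors and coactivators of brown fat, 5 rose between D0 and D7 in the edgeR model and 0 fell: Ppargc1a, Ppargc1b, Pparg, Irf4 and Nfia. Ppargc1a, the coactivator that cAMP induces in brown fat, reached 2.52 in Cre and 5.54 in Vec at D7. At D7 4 of 17 compared were at least 2-fold lower in Cre, with Ppargc1b at 3.89 in Cre and 17.9 in Vec, Pparg at 32.1 in Cre and 102 in Vec, Irf4 at 4.72 in Cre and 14.8 in Vec, and Ppara at 0.777 in Cre and 4.40 in Vec. Ppara, like Plin5 among the enzymes, was compared only because it reached an RPKM of 1 in Vec. Prdm16, a determinant of brown identity, was at 1.18 in Cre and 1.94 in Vec, and the lineage marker Zic1 at 4.07 in Cre and 3.40 in Vec, neither past 2-fold.

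Of 12 tested mitochondrial and lipid enzymes of brown fat 3 rose, Cox7a1, Cox8b and Acaa2, and 0 fell. Both Cox genes code for subunits of cytochrome c oxidase found in heart, muscle and brown fat, and their Cre values differed. Cox7a1 stood at 4.98 in Cre and 41.2 in Vec at D7, a ratio of 0.121 (0.0856 to 0.167), whereas Cox8b stood at 41.2 in Cre and 49.7 in Vec, a ratio of 0.829 (0.707 to 0.973). Plin5, which links droplets to mitochondria, was at 0.670 in Cre and 5.29 in Vec, and 2 of the 11 compared were 2-fold lower in Cre.

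Upstream of Ucp1, 3 of 7 tested genes of adrenergic input rose, Adrb1, Adrb3 and Clstn3, and 0 fell. Adrb3, the adipocyte beta-adrenergic receptor, reached 16.8 in Cre and 52.8 in Vec at D7, and Clstn3, a synaptic adhesion protein whose locus also makes a factor for the nerve supply of brown fat, 3.41 in Cre and 11.8 in Vec, the 2 of 7 that were 2-fold lower in Cre. In the thyroid axis 3 of 8 rose, Dio3, Thrb and Thrsp, and 0 fell. Dio3, which inactivates T3, was at 1.36 in Cre and 2.57 in Vec at D7, above Dio2 in both, and Thrsp, a thyroid-responsive lipogenic gene, was the 1 of 8 that was 2-fold lower in Cre, at 21.6 in Cre and 117 in Vec.

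Of 6 tested genes of other heat-producing cycles, through creatine or calcium, 1 rose, Alpl, at 2.07 in Cre and 4.77 in Vec at D7, and 0 fell. Sln, the calcium pump regulator of muscle, had 0 reads in all 8 libraries. Relatives of the members were counted in the same way. Of 7 tested carriers near the uncoupling proteins 1 rose, the dicarboxylate carrier Slc25a10, none of 6 genes of the Chchd group passed, Slc36a1 differed by -0.58 on the log2 scale (edgeR adjusted p = 0.0440), a call lost when any 1 of the 8 libraries was left out, with limma on log2(RPKM + 0.1) and with the filter at RPKM 5, and no other channel of the Kcnk family was expressed highly enough to test. Of 10 tested white or beige markers 4 rose, Retn, Agt, Lep and Slc7a10, and 0 fell. Retn was at 26.8 in Cre and 171 in Vec at D7. Of 2 tested Cide genes Cidec rose, of 12 muscle markers Myl1 and Tnni1 rose, and the 1 globin relative, 1 macrophage marker and 2 endothelial markers tested did not pass. Before D7 the lists held few 2-fold differences between Cre and Vec. At D0 there were 0 in the 16 lists, at 4h 1 enzyme and 1 adrenergic gene were lower and 1 white or beige marker was higher in Cre, and at D2 between 0 and 2 members of a list were lower and between 0 and 1 higher. The medians of the fitted D7 changes were 0.40 for the transcription list, 0.87 for the enzymes, 1.30 for adrenergic input, 1.42 for the thyroid axis and 7.2 for the general adipocyte genes, against 0.01 over all tested genes. All these D7 calls were lost without Vec D0, where no gene passed. Without Cre D0, 1 transcription gene, 1 enzyme, 1 white or beige marker and 5 of the 12 adipocyte genes passed, and none of the adrenergic, thyroid, uncoupling or muscle lists. With DESeq2 the counts were 5 for the thyroid axis, 3 for the other cycles and 4 for the uncoupling relatives.

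**Figure D4:**
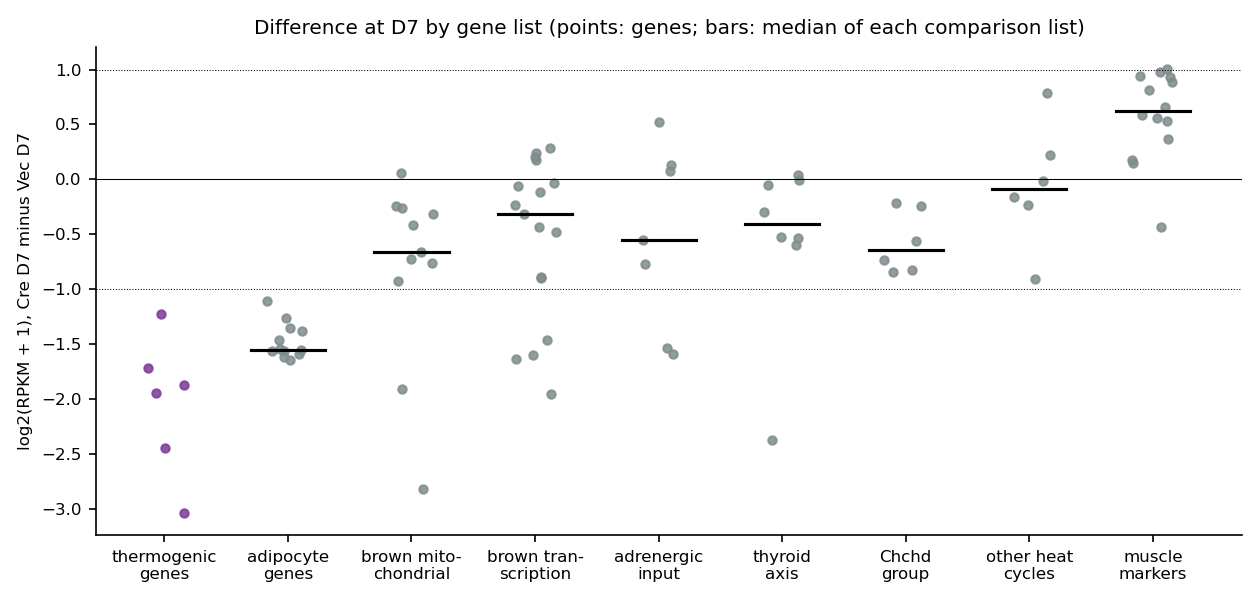
Difference in log2(RPKM + 1), Cre D7 minus Vec D7, for each gene compared in the thermogenic set (purple) and 8 other lists (grey, black bars at their medians), with dotted lines at the 2-fold rule. The thermogenic genes lie between -3.04 and -1.23 and the general adipocyte genes between -1.64 and -1.11, while the muscle markers have a median of 0.63.

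Genes with the profile closest to a tested member over the 8 libraries were listed by the root mean square difference of centred log2(RPKM + 1), 3 for each. Kcnk3 had the closest, Steap4 at 0.0938, followed by Mlxipl at 0.124 and Slc2a4 at 0.207. Among those of Cidea were Angptl8 and Abcg1 and among those of Slc36a2 Lgals12 and Mrap, and for Ucp2 they were Acer2, Dhrs3 and H1f5. For Mb they were Mmd2, Itih4 and Cox7a1, the last at 0.362, and for Chchd10 Ybx2, Prxl2a and Coq8a. These distances share the 8 libraries with all values above and describe likeness over them only.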

How the data were processed

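Messenger RNA of 8 libraries was analysed. The authors deposited a read count and an RPKM value per RefSeq transcript, per the file headers. The submitters' processing notes list the assembly mm9 and the tools SICER and CASAVA 1.8.2. The RNA aligner, the read counter and its strand setting were not given in the sources used here. Of 29082 transcripts 97.8% matched a symbol through RefSeq tables of assembly GRCm38.p6, and the transcript with the most reads stood for a gene. The members, lists and tests were chosen with earlier results of these data known. Deposited RPKM values gave levels, differences (log2 of RPKM plus a pseudocount of 1) and the size rule, and deposited counts gave Poisson and Clopper-Pearson 95% intervals and the model. The model had TMM scaling, edgeR 4.0.16 in R 4.3.3 and an adjusted p threshold of 0.05. It left 3 residual degrees of freedom and had a common biological coefficient of variation of 0.176. The SE values were back-calculated as the absolute log2 change over the square root of the F statistic of the edgeR test. A run on simulated reads held a D7 time change in well-counted genes and no genotype effect. Changes in genes with few reads were not covered by it. Alternatives were DESeq2 1.42.0, limma 3.58.1 on log2(RPKM + 1) and log2(RPKM + 0.1), RLE factors, other filters, summed transcripts and leaving out each library. The text names the members, Nr3c1, list genes past the time test (at most 5 a list, by size) or the D7 size rule, and 3 nearest profiles per tested member, of which 2 genes are not reported here. Prdm16, Zic1, Sln, Ckm, Myh6, Acta1, Myh3, Myog, Mylpf and Des were chosen after their values were seen.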

Additional observations from a re-analysis of the deposited data

Results flagged for a closer look

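The genotype difference of 2 genes lay on opposite sides at different times. Slc36a2 was 1.48 times as high in Cre as in Vec at D2 (1.34 to 1.65) and 0.251 times at D7 (0.236 to 0.267), on 604 to 3454 reads per library. Chchd10 was 3.45 times as high in Cre at 4h (1.22 to 11.1), on 13 reads in Cre and 6 in Vec, and 0.166 times at D7 (0.140 to 0.196). These intervals cover counting error in single libraries. The edgeR term for an extra genotype difference at D7, added after the data were seen, was -2.62 for Slc36a2 (adjusted p = 0.415) and -2.54 for Chchd10 (adjusted p = 0.474), so neither passed. The difference between D2 and D7 or between 4h and D7 by itself was not tested. No group has the 4 samples that a check for an outlying library needs.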

How the results depend on the processing

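No paired analysis was possible because each group holds 1 library and the labels give no shared replicate numbers. Counts of members that changed moved by more than 1.5 times as follows. At 4h against D0 the count was 1 and became 2 with no filter on low values (Dio2 and Ucp2), and leaving out single libraries gave 0 to 1. At D2 against D0 it was 4, became 2 with limma on log2(RPKM + 1), and was 0 to 4 over the left-out libraries. At D7 against D0 it was 6, and 0 to 6 over the left-out libraries. At D7 against D2 it was 4, became 2 with a filter at an RPKM of 5, which left 4 members to test, and was 1 to 6 over the left-out libraries. At 4h the 2-fold count of Cre against Vec was 0 and became 1 with a pseudocount of 0.1 (Chchd10) and 1 with TMM scaling (Ucp2), whereas the D7 count was 6, or 4 with a pseudocount of 5. Over all genes the D7 count in either direction was 562, or 1010 with a pseudocount of 0.1 and 209 with 5. Of the 562, 389 were lower in Cre. Estimates that turned round were all of members that had not passed. Against D0, they were Chchd10 at 4h without Cre 4h (range -1.29 to 1.71 over the left-out libraries), Mb at 4h without Cre D0 (-2.72 to 0.0097), Cidea at D2 without Cre D0 or Vec D2 (-1.89 to 1.81), and Mb at D2 without Vec D0 (-0.58 to 3.67). For Cre against Vec over all times, they were Mb (-3.26 to 0.089) and Slc36a2 (-1.83 to 0.58), both without Cre D7 or Vec D7. The extra D7 difference of Cidea, 0.82 with all libraries, was -2.55 without Cre 4h or Vec 4h (-2.55 to 1.59), and its only reads before D7 were 5 in Vec 4h. The causes were not tested. Depth limits Ucp1, Ucp3 and Dio2, which had at most 29 reads in any library.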
